A study of Mus musculus with 9 samples.

Results

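The Hox cluster genes of the mouse were followed in whole NB9464 tumors. All symbols made of Hox, a cluster letter from a to d and a number were taken from the count table, which gave 39 genes out of 54429 symbols. HoxA held 11 of them on chromosome 6, HoxB 10 on chromosome 11, HoxC 9 on chromosome 15 and HoxD 9 on chromosome 2. The rule uses the symbol alone and no expression value.

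Hox genes encode homeodomain transcription factors that give cells along the head-to-tail axis their positional identity. Genes in the same position of different clusters are paralogs and are numbered alike, from group 1 at the anterior end to group 13 at the posterior end. Within a cluster, low-numbered genes are switched on earlier and further towards the head than high-numbered genes, and the pattern is held afterwards by Polycomb repression and Trithorax activation. Cells of mesenchyme, skin, blood and neural crest keep parts of this code in the adult, so a tumor carries the code of its malignant cells together with that of its stroma.

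NB9464 is a mouse neuroblastoma line with amplified MYCN. In the labels, its cells were placed under the skin of wild-type C57BL/6 mice, aged 4 to 6 weeks by the study's methods, and treatment started at a tumor volume of 250 mm3. The vehicle group (3 tumors) carried NB9464 tumors without active drug. The R788 + anti-PDL1 group (3 tumors) received R788, the oral prodrug of a Syk kinase inhibitor, at 50 mg/kg, and an antibody that blocks the checkpoint ligand PD-L1. The Rad + R788 + anti-PDL1 group (3 tumors), called irradiated here, received both agents and 10 Gy of radiation. Treatment ran from day 28 to day 37. Every mouse carried a graft of the same line, no group received radiation alone or a single agent here, and the tumors also hold host stroma and immune cells.

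Library totals ranged from 18276683 to 23397886 counts, and the 39 Hox genes together took 695 to 1060 of them. Levels are given as CPM, the usual depth-scaled count, after TMM scaling, a correction for differences in library composition. On this scale 3 counts, the upper limit that a count of 0 allows, corresponded to 0.115 to 0.221 CPM per library, which covers counting error only. The first irradiated tumor stood apart, with a TMM factor of 0.743 against 0.975 to 1.12 in the other 8 libraries. The labelled tumor type was set against 13 markers of sympathetic neuroblasts. Th, the tyrosine hydroxylase that defines catecholamine-making cells, was 1 of 3 with a count of 0 in all 9 libraries, and Dbh, Phox2a, Chga and Chgb did not reach 1 CPM in any. Hand2 at 325 to 867 CPM, Ddc at 3.44 to 19.7 CPM and Gata2 at 1.26 to 6.99 CPM were above 1 CPM in every tumor, and Gata3, Isl1 and Stmn2 in some. Of 9 fibroblast markers, the collagen genes Col1a1 and Col3a1 led, at 959 to 2845 and 400 to 2402 CPM. The others were lower, with the collagen gene Col1a2 at 19.2 to 195 CPM and Thy1, the lowest by mean, at 5.92 to 19.3 CPM. Hox levels are therefore given for the tumors as a whole and not for neuroblasts. Isl1, with 0 counts in vehicle tumors and 14 to 80 in the treated ones, was the only gene of the 10 cell type lists that edgeR called. The call was for R788 + anti-PDL1 against vehicle, where 0.678% of all tested genes were called. It was lost without vehicle tumor 2 or 3 or R788 + anti-PDL1 tumor 1 or 3. In that comparison limma-voom called Isl1, and DESeq2 called Isl1, Ddc, Gata3, Col1a2, Krt14, Krt5 and Cd4. For irradiated tumors against vehicle, limma-voom called Isl1, and DESeq2 called Isl1, Ckm, Krt14, Krt5 and C1qa. Against R788 + anti-PDL1, DESeq2 called Gata3. In bulk samples such as these, fewer cells of a type and less RNA per cell cannot be told apart.

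Of the 39 genes, 4 were on, defined as at least 1 CPM in every tumor. These were Hoxc4, Hoxd4, Hoxd8 and Hoxd9. A further 3 were mixed, reaching 1 CPM in some tumors, namely Hoxc5 (7 of 9 tumors), Hoxc6 (5 of 9) and Hoxa3 (1 of 9). The other 32 stayed under 1 CPM in all 9 tumors. All genes that were on, and both mixed genes with a count in every tumor, lay in HoxC or HoxD. HoxA and HoxB contributed 2.46% and 2.998% of all 7671 Hox counts, against 47.2% for HoxC and 47.3% for HoxD. By paralog group, the genes that were on fell in groups 4, 8 and 9. Groups 1 to 3 held 0 genes that were on among 8, groups 4 to 8 held 3 among 15, and groups 9 to 13 held 1 among 16.

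**Figure D1:**
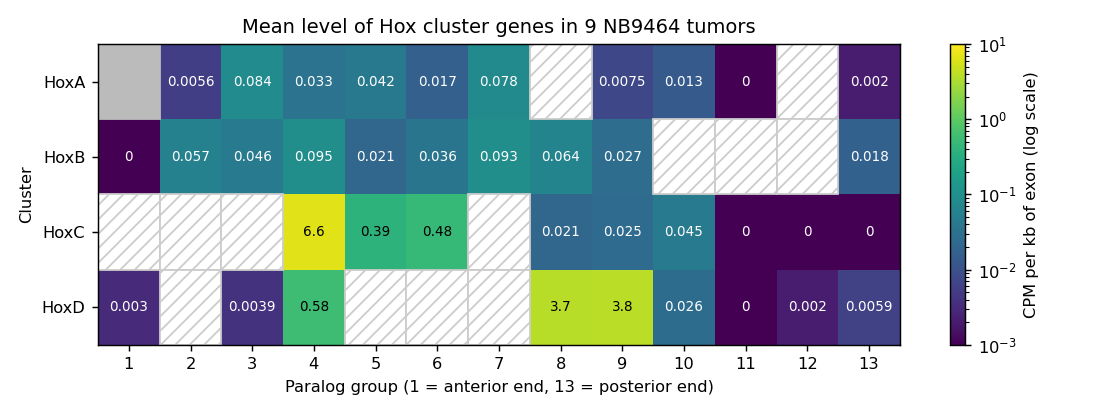
Mean level over 9 tumors of 38 of the 39 Hox cluster genes, in CPM per kb of exon on a log color scale, with clusters as rows and paralog groups as columns. Hatched squares mark groups with no gene in that cluster, the plain gray square a gene not shown, a 0 marks genes without a count in any tumor, and the bright squares are Hoxc4, Hoxd8 and Hoxd9 at 6.61, 3.69 and 3.81 CPM per kb.

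Hoxc4 had the highest level per kb of exon. Its gene (ENSMUSG00000075394.4, chr15:103018934-103036852, plus strand, GRCm38) lies at the anterior end of HoxC, and in embryos it marks the region from the lower neck backwards. Its level per kb averaged 6.61 ± 1.90 (SD, n = 9 tumors) and exceeded that of Hoxd9 in 9 of 9 tumors, with a ratio of means of 1.73, although the ranges over tumors overlapped. Hoxd9 (ENSMUSG00000043342.9, chr2:74697727-74700208) and Hoxd8 (ENSMUSG00000027102.4, chr2:74704615-74707933), both on the plus strand, are direct neighbors in HoxD and pattern the trunk and, for Hoxd9, the limb. Their levels per kb were 3.81 ± 0.759 and 3.69 ± 1.26, and Hoxd9 was the higher of the pair in 5 of 9 tumors, so their order was within the spread between tumors. Hoxd4 (ENSMUSG00000101174.8, chr2:74711929-74729160, plus strand) followed at 0.578 ± 0.113 CPM per kb. Hoxd8 exceeded Hoxd4 in 9 of 9 tumors with a ratio of means of 6.39 and no overlap of ranges. Below Hoxd4, the mixed genes Hoxc6 (0.475 CPM per kb) and Hoxc5 (0.387) were close together, with Hoxd4 above Hoxc6 in 6 of 9 tumors and Hoxc6 above Hoxc5 in 5 of 9. The next gene, Hoxb4, lay below Hoxc5 in 9 of 9 tumors, by a ratio of means of 4.05.

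Genes that were on lay close to genes that were off. Hoxd9 starts 2621 bases after the end of Hoxd10, a gene with 11 counts in 1 tumor and 0 in the other 8. On the other side, Hoxd3 begins 3993 bases after the end of Hoxd8 and had 3 counts in all 9 tumors together, an uncertain level because it shares 2225 exon bases with the same-strand gene Gm28230 and 388 with Hoxd4. In HoxC, the counted stretch was the anterior end, with Hoxc6, Hoxc5 and Hoxc4, while Hoxc8, Hoxc9 and Hoxc10 had 9, 13 and 17 counts in total and Hoxc11, Hoxc12 and Hoxc13 had none.

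The homeoboxes of Hoxc4 and Hoxd8 are shown, 1 gene that was on from each of HoxC and HoxD, because this is the part by which Hox genes are told apart or confused. They were read from GENCODE M21 coding transcripts of GRCm38, 5′ to 3′, and capitals mark the 18 bases coding for the conserved core of the DNA recognition helix by which each was located.
Hoxc4 homeobox: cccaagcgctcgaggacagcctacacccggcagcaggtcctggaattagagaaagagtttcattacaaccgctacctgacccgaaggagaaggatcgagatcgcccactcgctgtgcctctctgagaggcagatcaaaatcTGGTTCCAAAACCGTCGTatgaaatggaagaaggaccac
Hoxd8 homeobox: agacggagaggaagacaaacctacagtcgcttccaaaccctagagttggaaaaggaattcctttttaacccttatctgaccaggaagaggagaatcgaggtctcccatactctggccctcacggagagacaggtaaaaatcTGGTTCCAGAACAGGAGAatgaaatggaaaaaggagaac

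Hoxc4 and Hoxd8, of different paralog groups, coded for the same residue at 40 of 60 homeodomain positions, and 119 of their 180 homeobox bases matched. Across all 39 genes, pairs of the same paralog group shared a median of 56 residues (47 to 60, 42 pairs), and other pairs a median of 37 (24 to 56, 699 pairs). Homology at the DNA level bears on how reads can be assigned. The longest run of identical bases that a transcript shared with any other Hox gene was 20 for Hoxc4, 28 for Hoxc6, 32 for Hoxd8, 36 for Hoxa3 and 40 for Hoxd9. It was 168 for Hoxc5, which shares 166 exon bases with Hoxc10, and 388 for Hoxd4, which shares an exon with Hoxd3. Hoxd4 also overlaps the same-strand predicted gene Gm28230 (132 counts in total) by 1154 exon bases and the antisense gene Hoxd3os1 (166 counts) by 347. The levels of Hoxd4, Hoxd3 and Hoxc5 are therefore uncertain, since reads from shared exon bases can be counted for either gene, and for the antisense overlap the strand setting was not stated. Hoxc4, Hoxc6, Hoxd8 and Hoxd9 share no exon base with another annotated gene.

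Promoter windows of 300 bases, running from 250 bases before to 50 after an annotated start, were found for 22 of the 39 genes in RefSeq (GRCm38.p6), as 24 windows. The windows of the 3 genes with the highest levels are shown, 5′ to 3′ on the plus strand, with capitals marking CCAAT on either strand (ATTGG on the opposite one). They are chr15:103034145-103034444 for Hoxc4, at a start inside the annotated gene, chr2:74704365-74704664 for Hoxd8 and chr2:74697513-74697812 for Hoxd9.
Hoxc4 promoter: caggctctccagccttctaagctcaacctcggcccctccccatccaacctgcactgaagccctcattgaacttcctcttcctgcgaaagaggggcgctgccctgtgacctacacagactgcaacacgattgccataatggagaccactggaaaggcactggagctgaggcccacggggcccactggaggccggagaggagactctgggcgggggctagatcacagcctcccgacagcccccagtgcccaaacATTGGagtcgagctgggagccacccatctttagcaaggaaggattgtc
Hoxd8 promoter: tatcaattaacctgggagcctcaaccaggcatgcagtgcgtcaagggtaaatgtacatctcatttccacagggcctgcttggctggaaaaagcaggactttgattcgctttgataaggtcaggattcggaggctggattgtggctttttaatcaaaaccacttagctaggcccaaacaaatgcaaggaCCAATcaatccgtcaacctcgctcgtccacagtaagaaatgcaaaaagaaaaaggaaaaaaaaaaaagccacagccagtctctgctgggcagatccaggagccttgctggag
Hoxd9 promoter: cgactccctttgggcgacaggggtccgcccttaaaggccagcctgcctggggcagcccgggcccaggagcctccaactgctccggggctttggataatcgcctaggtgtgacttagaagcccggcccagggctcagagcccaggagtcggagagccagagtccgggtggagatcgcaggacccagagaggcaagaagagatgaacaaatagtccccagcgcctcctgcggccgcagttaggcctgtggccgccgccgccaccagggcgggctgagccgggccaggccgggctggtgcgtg

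Hox promoters as a class were rich in the dinucleotide CpG. The ratio of CpG seen to that given by the C and G content had a median of 0.626 over the 24 Hox windows and 0.384 over all 32851 windows, and GC content had a median of 57.7% against 52.7%. In the 24 Hox windows, where Hoxc4 was the only HoxC gene, the 4 genes that were on lay under the median. Their ratios were 0.333 for Hoxc4, 0.339 for Hoxd4, 0.367 for Hoxd8 and 0.573 for Hoxd9, and 3 of these 4 were under the median of all promoters. Of the other 20 Hox windows, 3 were under it, and their median was 0.770 (0.257 to 1.02). With 4 windows this is a description only. On both strands, CCAAT was present in 62.5% of Hox windows and 37.4% of all windows, TATAAA in 16.7% and 13.6%, and TGATNNAT, the letters bound by PBX and HOX proteins together, in 16.7% and 8.85%. In the printed windows no match overlapped another.

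The 4 genes that were on had coefficients of variation of 19.6% to 34.1% over the 9 tumors, and the mixed genes Hoxc5 and Hoxc6 had 37.8% and 51.6%. Hoxc4 was at 28.9, 12.3 and 15.8 CPM in vehicle tumors 1 to 3, at 14.8, 18.8 and 13.8 CPM after R788 + anti-PDL1, and at 17.0, 14.5 and 16.9 CPM in irradiated tumors. The first vehicle tumor was the highest of the 9 and the second vehicle tumor the lowest, so the treated groups lay inside the vehicle range. Hoxd9 was at 8.12, 7.90 and 9.81 CPM in vehicle tumors, at 8.16, 6.50 and 6.39 CPM after R788 + anti-PDL1, and at 11.4, 8.32 and 6.71 CPM in irradiated tumors. Its 3 groups overlapped. Hoxd4, a paralog of Hoxc4 active in the hindbrain and neck of embryos, was at 1.21, 1.89 and 1.92 CPM in vehicle tumors, at 2.16, 1.15 and 1.76 CPM after R788 + anti-PDL1, and at 1.92, 1.67 and 1.64 CPM in irradiated tumors. Its group means were 1.67 ± 0.397, 1.69 ± 0.511 and 1.75 ± 0.15 CPM (SD, n = 3), closer together than the SD of any group.

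Hoxd8, with the 34.1%, varied most among the genes that were on. It was at 7.90, 12.9 and 12.9 CPM in vehicle tumors, at 7.98, 7.34 and 6.64 CPM after R788 + anti-PDL1, and at 16.9, 8.07 and 10.4 CPM in irradiated tumors. After TMM scaling all 3 irradiated tumors lay above all 3 R788 + anti-PDL1 tumors, as in 27.4% of all tested genes the groups did not overlap. The first vehicle tumor fell among the R788 + anti-PDL1 tumors. The closest values were 8.07 CPM in irradiated tumor 2 and 7.98 CPM in R788 + anti-PDL1 tumor 1. As a share of total counts this order was reversed, with 159 of 19025110 counts and 181 of 21577912. The highest value came from the first irradiated tumor, the library with the low TMM factor. The antisense gene Hoxd3os1, which shares no exon base with Hoxd8, was also highest there, at 3.02 CPM against 0.53 to 1.11 CPM in the other 8 tumors, and its part in the result was not tested.

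**Figure D2:**
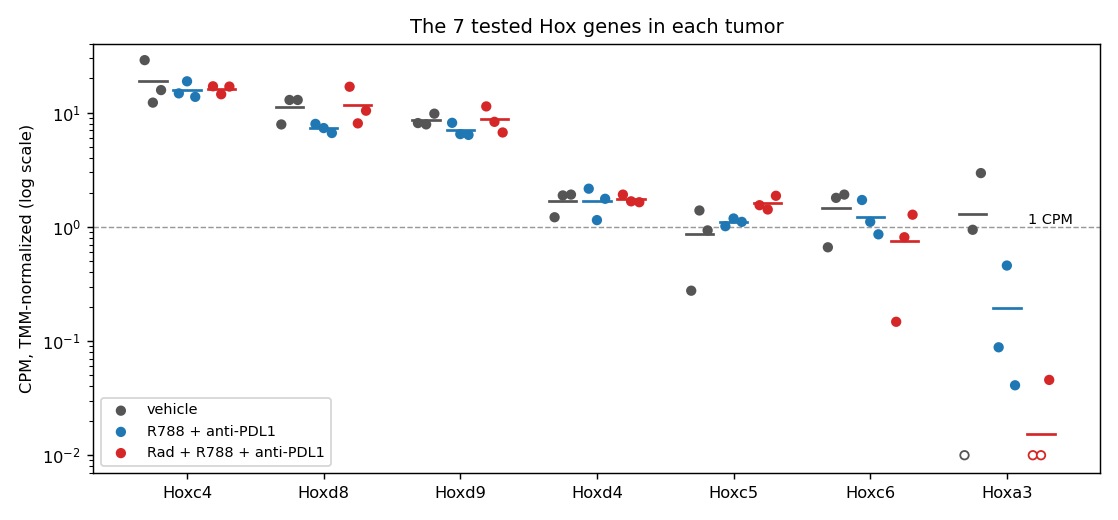
Level of the 7 Hox genes that passed the low-count filter in each tumor, in TMM-normalized CPM on a log axis, with 3 points per group, group means as bars and the 1 CPM limit dashed. Open points are tumors without a count, drawn at 0.01 CPM, and Hoxc4, Hoxd8, Hoxd9 and Hoxd4 stayed above 1 CPM in every tumor.

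Among the mixed genes, Hoxc5 and Hoxc6, trunk-level members of HoxC, were seen in every tumor. Hoxc5 was at 0.28, 1.39 and 0.93 CPM in vehicle tumors, at 1.01, 1.18 and 1.11 CPM after R788 + anti-PDL1, and at 1.55, 1.42 and 1.87 CPM in irradiated tumors. After TMM scaling the irradiated tumors lay above all other tumors, by 1.42 CPM against 1.39 CPM at the closest. As a share of total counts they did not. The first irradiated tumor had 21 of 18276683 counts, a smaller share than the 31 of 22536863 in vehicle tumor 2. Groups did not overlap in 20.5% of all tested genes against vehicle and in 27.4% against R788 + anti-PDL1. Hoxc6 was at 0.66, 1.80 and 1.92 CPM in vehicle tumors, at 1.72, 1.11 and 0.86 CPM after R788 + anti-PDL1, and at 0.15, 0.81 and 1.28 CPM in irradiated tumors, where the lowest value again belonged to the first. These neighbors thus had opposite orders of group means, 0.867, 1.10 and 1.61 CPM for Hoxc5 and 1.46, 1.23 and 0.746 CPM for Hoxc6, whose 3 groups overlapped. The 17 counts of Hoxc10, which shares exon bases with Hoxc5, did not exceed 4 in a tumor.

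Hoxa3, an anterior gene required for the thymus and other derivatives of the pharynx, was nearly limited to 3 tumors (Hoxa3 gene ENSMUSG00000079560.13, chr6:52169062-52213336, minus strand). It had 0, 21 and 54 counts in vehicle tumors, 2, 12 and 1 after R788 + anti-PDL1, and 0, 0 and 1 in irradiated tumors. Vehicle and irradiated tumors overlapped because the first vehicle tumor had none. Summed over tumors, the rate in vehicle was 70.6 times that in irradiated tumors (95% Clopper-Pearson counting interval 12.3 to 2824) and 6.25 times that after R788 + anti-PDL1 (3.56 to 11.7). These intervals leave out the spread between tumors. Vehicle tumors 2 and 3 also had the only sizeable counts of the keratin Krt14 (41 and 43, against 0 to 4 in the other 7) and the most of Trp63 (79 and 29, against 4 to 24), both named after their values were seen. The summed level of all 6 keratinocyte markers, led by Krt5 in all tumors but vehicle tumor 2, was 7.95 to 8.71 CPM in vehicle, 2.16 to 64.2 CPM after R788 + anti-PDL1 and 47.4 to 76.0 CPM in irradiated tumors, and their part in the Hoxa3 counts was not tested. Hoxa3 exons overlap Gm28308 on the same strand (3 counts) and 4 antisense genes, of which the most counted had 12.

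The 32 genes that were off were not all silent. In 26 of them some tumor had a count, with a highest value of 14 counts or 0.535 CPM, and Hoxb4 had a count in all 9 tumors. Hoxb4, Hoxa7, Hoxb3, Hoxb2, Hoxb8 and Hoxb7, of which 5 lie in HoxB, led these 32 with 29 to 48 counts in total. The anterior genes Hoxa2, Hoxd1 and Hoxd3 had 1 to 3 counts in total, and Hoxb1 had none. The remaining central genes, Hoxa4, Hoxa5, Hoxa6, Hoxb5, Hoxb6 and Hoxc8, had 3 to 15. At the posterior end, Hoxa9, Hoxb9 and Hoxc9, paralogs of the active Hoxd9, had 9, 15 and 13 counts in total. Hoxa10, Hoxc10 and Hoxd10 had 8, 17 and 11, and Hoxa13, Hoxb13, Hoxd12 and Hoxd13 had 1 to 6. The 6 genes at 0 in all 9 tumors were Hoxb1, Hoxa11, Hoxc11, Hoxd11, Hoxc12 and Hoxc13, so the whole of paralog group 11 was without a count. Over 184963450 counts, a total of 0 allows up to 0.016 CPM for each.

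The sparse counts were unevenly spread over tumors. The 32 genes summed to 19, 49 and 28 counts in vehicle tumors, to 50, 103 and 53 after R788 + anti-PDL1, and to 32, 13 and 39 in irradiated tumors. The second R788 + anti-PDL1 tumor was the highest, with all counts of Hoxd10 (11) and the most of Hoxa4 (7), Hoxa5 (8), Hoxa7 (10), Hoxb5 (6), Hoxb7 (14), Hoxb8 (12) and Hoxb9 (7). In that tumor the 9 fibroblast markers summed to 5609 CPM (2585 to 5047 in the others) and the 6 endothelial markers to 119 CPM (34.2 to 66.1), both the highest of the series. Their part in the sparse Hox counts was not tested. By contrast, Hoxc4, Hoxd8 and Hoxd9 made up 80.1% to 93.3% of the Hox counts in each of the 9 tumors, and 80.7% in this one.

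**Figure D3:**
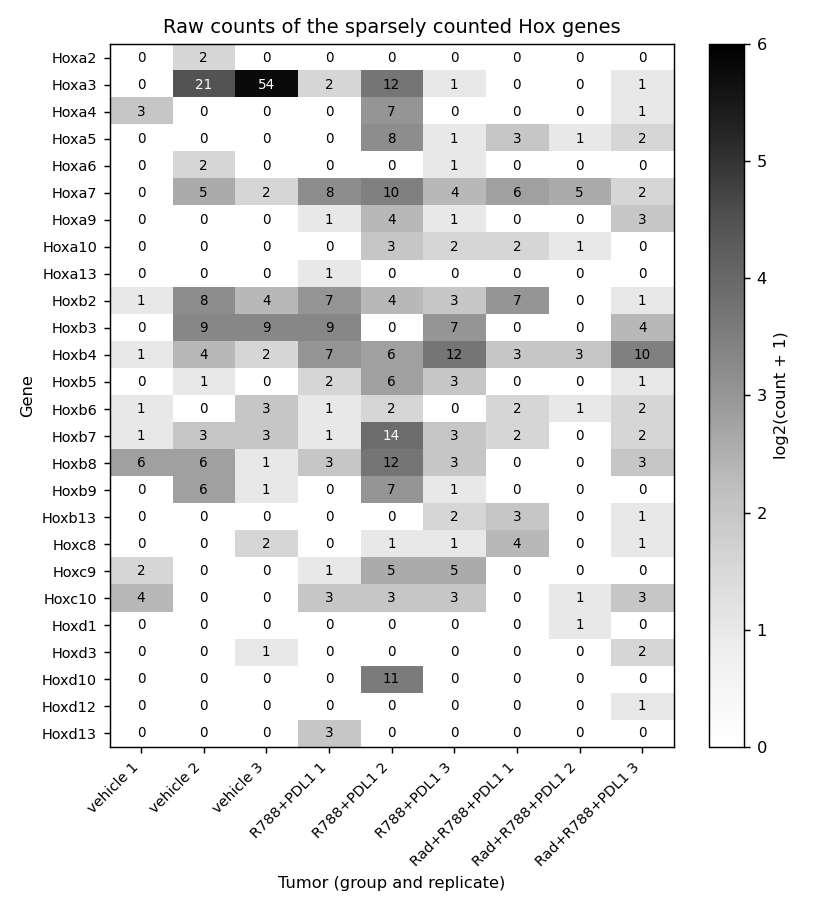
Raw counts of Hoxa3 and 25 of the 26 genes that were off but counted somewhere, with genes as rows, the 9 tumors as columns and darker shading for log2(count + 1). Hoxa3 reaches 54 in the third vehicle tumor, and the column of the second R788 + anti-PDL1 tumor is the fullest.

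The comparison of R788 + anti-PDL1 with vehicle asks what the drug pair changed. Of 7 Hox genes that passed the low-count filter, 0 were called at an adjusted p under 0.05 by edgeR's quasi-likelihood test, where 0.678% of all 15931 tested genes were called. The 108 calls behind this share fell to 0 without vehicle tumor 2 or 3 or without R788 + anti-PDL1 tumor 1 or 3, and to 34 without R788 + anti-PDL1 tumor 2. At an unadjusted p under 0.05 the count was also 0, where the share of all tested genes was 11.7%. DESeq2 and limma-voom each called 0 Hox genes, with 726 and 111 calls over all genes. The genes with the lowest p were Hoxa3 (log2 fold change -2.67 ± 1.35 SE, adjusted p = 0.507), Hoxd8 (-0.62 ± 0.33, adjusted p = 0.544) and Hoxd9 (-0.30 ± 0.29, adjusted p = 0.767). The Hoxd8 means were 7.32 ± 0.671 CPM (SD, n = 3) after treatment and 11.3 ± 2.91 CPM in vehicle, with a 95% interval for the log2 difference of -1.37 to 0.13. In 0 of 7 genes did the groups not overlap, against 30.1% of all tested genes. The median log2 fold change was -0.26 for the 7 Hox genes and -0.02 for all genes. Without the third vehicle tumor the value for Hoxa3 was -1.25, and without the second R788 + anti-PDL1 tumor it was -4.22.

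The comparison of irradiated tumors with vehicle covers all 3 agents together. Again 0 of 7 Hox genes were called by edgeR, against 0.0439% of all tested genes, or 7 calls. These became 22 without the first vehicle tumor, 57 without the first irradiated tumor and 1 to 4 without any of the other 4. At an unadjusted p under 0.05 there was 1 Hox gene of 7, Hoxa3, where the share of all tested genes was 13.2%. DESeq2, with 553 calls over all genes, also called Hoxa3 (adjusted p = 0.0431), while limma-voom called 0 Hox genes. The log2 fold change of Hoxa3 was -5.78 ± 1.83 (adjusted p = 0.278 by edgeR, 0.0431 to 0.706 over 11 alternatives) and rests on 1 count in the irradiated group, so its size depends on how the model treats counts near 0. Hoxc5 was at 0.89 ± 0.57 (adjusted p = 0.474) and Hoxc6 at -0.93 ± 0.72 (adjusted p = 0.543). After TMM scaling, Hoxc5 was the only one of the 7 tested genes whose groups did not overlap, a share to be read against 20.5% of all tested genes. Its value was 0.48 without the first vehicle tumor and 1.41 without the second, and that of Hoxc6 was -0.44 without the first irradiated tumor and -1.55 without the third. For the genes that were on, the 95% intervals of the log2 difference were -0.94 to 0.48 for Hoxc4, -0.68 to 0.81 for Hoxd8, -0.61 to 0.67 for Hoxd9 and -0.89 to 1.01 for Hoxd4. The median was 0.03 for the 7 Hox genes and 0.05 for all genes.

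The comparison of irradiated with R788 + anti-PDL1 tumors asks what radiation added. By edgeR, 0 of 7 Hox genes were called, against 0.00628% of all tested genes. At an unadjusted p under 0.05 there were also 0 of 7, against 18.4% of all tested genes. The single adjusted call over all genes became 21 without the first irradiated tumor, stayed at 1 without the third irradiated tumor and was 0 without any of the other 4. DESeq2 and limma-voom called 0 Hox genes each, with 646 and 8 calls over all genes. Hoxd8 had the lowest p, with 11.8 ± 4.57 CPM in irradiated and 7.32 ± 0.671 CPM in the other tumors and a log2 fold change of 0.68 ± 0.33 (adjusted p = 0.295, interval -0.07 to 1.43). Without the first irradiated tumor it was 0.35. Hoxa3 followed at -3.11 ± 1.95 (adjusted p = 0.394) and Hoxd9 at 0.32 ± 0.29 (adjusted p = 0.535, and 0.11 without the first irradiated tumor). For Hoxa3 the value was -1.56 without the second R788 + anti-PDL1 tumor and -5.08 without the third irradiated tumor. In 2 of 7 genes, Hoxc5 and Hoxd8, the groups did not overlap after TMM scaling, against 27.4% of all tested genes. The median was 0.05 for the 7 Hox genes and 0.04 for all genes. The 3 comparisons share groups, so their values are not independent of each other.

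**Figure D4:**
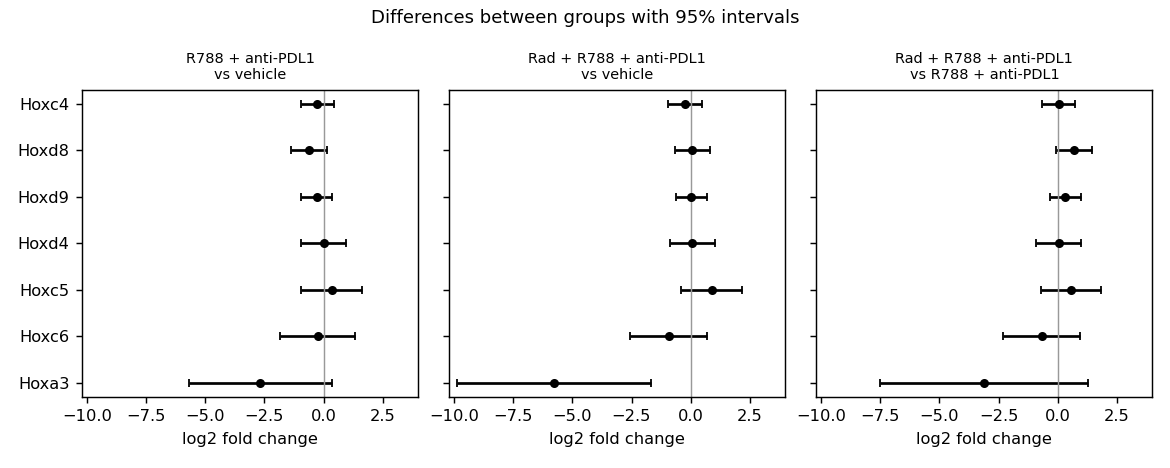
Log2 fold change of the 7 tested Hox genes in the 3 comparisons, the first named group over the second, as points with 95% intervals from the fit over all 9 libraries. The interval of Hoxa3 in irradiated tumors against vehicle, -9.89 to -1.67, is the only one that leaves out 0 before adjustment for the 15931 genes tested.

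Hox proteins find their targets together with TALE homeodomain proteins of the PBX, MEIS and PKNOX families, and all 9 listed members were expressed and tested. Pbx3 was at 74.5 to 243 CPM, Meis2 at 74.4 to 179 CPM and Meis1 at 60.8 to 117 CPM. Meis2 was at 179, 137 and 134 CPM in vehicle tumors, at 74.4, 98.3 and 74.5 CPM after R788 + anti-PDL1, and at 93.0, 121 and 109 CPM in irradiated tumors. Every vehicle tumor was higher than every treated tumor, a lack of overlap shared by 30.1% of all tested genes against R788 + anti-PDL1 and 20.5% against irradiated tumors. This was not particular to Meis2, since Pbx2 was at 34.3 to 48.6 CPM in vehicle and 26.8 to 32.4 CPM in treated tumors. In none of the 3 comparisons did edgeR call a cofactor, and 3, 2 and 1 of 9 had an unadjusted p under 0.05 in the order used above, where the shares of all tested genes were 11.7%, 13.2% and 18.4%. For R788 + anti-PDL1 against vehicle, Meis2 was at -0.86 ± 0.20 (adjusted p = 0.105) and was called by DESeq2, while limma-voom called 0 cofactors in each comparison. The medians over the 9 were -0.52, -0.26 and -0.01, beside -0.02, 0.05 and 0.04 for all genes.

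**Figure D5:**
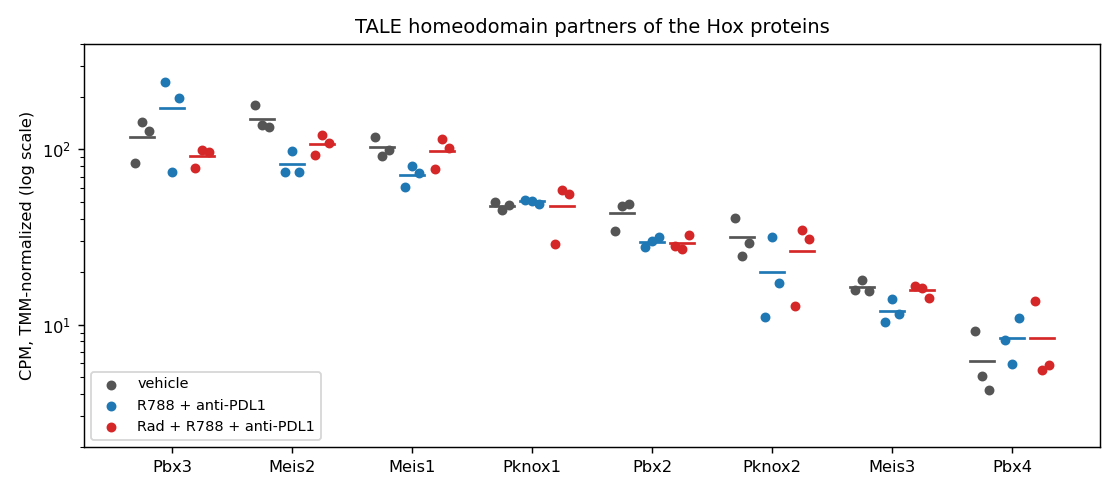
Level of 8 of the 9 listed TALE partners of Hox proteins in each tumor, in TMM-normalized CPM on a log axis, with 3 points per group and group means as bars. The 3 vehicle tumors lie above the other 6 for Meis2, at 134 to 179 CPM, and also for Pbx2, at 34.3 to 48.6 CPM.

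The machinery that keeps Hox genes off or on was expressed throughout. All 23 Polycomb genes were tested, led by Rbbp4, Rbbp7, Cbx6 and Aebp2. Rbbp4 and Rbbp7, histone-binding subunits of the complex that writes the repressive mark, were at 949 and 881 CPM in the first irradiated tumor and at 340.5 to 498 and 253 to 480 CPM in the others. The Polycomb genes did not move together in that tumor. Ezh2 was also highest there, at 382 CPM, and Suz12 was lowest there, at 50.1 CPM, both named after their values were seen. By edgeR, 0 of 23 were called in each comparison. In the same order, 2, 6 and 10 of 23 had an unadjusted p under 0.05, where the shares of all tested genes were 11.7%, 13.2% and 18.4%. DESeq2 called 1, Ezh1, in irradiated against R788 + anti-PDL1 tumors, and limma-voom called 0. The medians were -0.12, -0.27 and -0.11. Of 12 genes of the MLL and Trithorax side, led by Psip1, Ash2l, Kdm6b and Dot1l, 0 were called by edgeR, DESeq2 or limma-voom. By edgeR, 0, 2 and 2 of 12 had an unadjusted p under 0.05, to be read against 11.7%, 13.2% and 18.4% of all tested genes. Their medians were -0.06, -0.22 and -0.29.

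Upstream regulators of the Hox code were partly absent. Cdx2 and Cdx4, the caudal factors that open the clusters in the embryo, and Cyp26a1, which degrades retinoic acid, had 0 counts in all 9 tumors, and Cdx1 had at most 5. The retinoid receptors Rxra, Rarg and Rara led the list of 15, at 96.8 to 135, 47.8 to 82.1 and 24.5 to 77.9 CPM. Of the 10 that could be tested, edgeR called 0, with 1, 2 and 0 at an unadjusted p under 0.05 (11.7%, 13.2% and 18.4% of all tested genes), and DESeq2 called 1, Cyp26b1, for R788 + anti-PDL1 against vehicle, where limma-voom called 0. The medians were 0.03, 0.08 and -0.02.

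Non-coding RNAs of the clusters were scarce. Of 16 found in the table, 9 had 0 counts in all tumors, among them Hotair of HoxC, Hoxa11os, Hoxb5os and 6 microRNA rows, which poly(A) libraries are not built to capture. The other 7 included Hoxd3os1 at 10 to 41 counts per tumor, Hottip, which is transcribed from the posterior end of HoxA, at 1 to 26, and Hotairm1 at the anterior end of HoxA at 0 to 39, with the 39 in the second R788 + anti-PDL1 tumor. Hoxd3os1 and Hottip could be tested, and edgeR, DESeq2 and limma-voom called 0 in each comparison. By edgeR, 0 had an unadjusted p under 0.05, where the shares of all tested genes were 11.7%, 13.2% and 18.4%. Most of the 11 genes flanking the clusters were expressed, and 9 could be tested. Cbx5, Hibadh, Calcoco1 and Mtx2 were at 178 to 430, 73.4 to 111, 26.1 to 100 and 50.9 to 77.7 CPM, while Evx2, a homeobox gene beside Hoxd13, had 0 counts. By all 3 tools 0 of these 9 were called. By edgeR, 0, 1 and 1 of 9 had an unadjusted p under 0.05, to be read against 11.7%, 13.2% and 18.4% of all tested genes.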

How the data were processed

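RNA was measured in 9 whole tumors by poly(A) RNA-seq. The deposited table held 1 estimated count per gene symbol and library as whole numbers, made by the authors with STAR 2.6.1d and Salmon 1.4.0 on mouse build mm10, without normalization. These counts were used as deposited. The sources conflicted on the RNA source (macrophages in the extraction text, whole tumor as the tissue) and on the read layout, and gave no strand setting. Totals were 18276683 to 23397886 counts per library.

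Groups came from the treatment label, with 3 tumors each. After a low-count filter (filterByExpr, minimum count 10) and TMM scaling, all 9 libraries entered 1 model with a term per group and no covariates, and contrasts were tested by quasi-likelihood in edgeR 4.0.16 under R 4.3.3. P-values were two-sided and adjusted by Benjamini-Hochberg over 15931 genes. Nothing states more than that the tumors are separate samples, so p-values measure the spread between these tumors. A Hox gene was on at 1 CPM or more in all libraries. Called Hox genes and the 3 with the lowest p were named per comparison, and other lists were given by counts, called genes and up to 4 leading genes by mean CPM. The rule for members uses symbols alone, but this gene family and the lists were chosen with earlier results of these data known. Alternatives were DESeq2 1.42.0, limma-voom (limma 3.58.1), RLE scaling, no filter, only the 6 libraries compared, a replicate block and leaving out each library. GENCODE M21 (GRCm38) gave positions, exon lengths and homeoboxes, and matched 98.8% of symbols. RefSeq gave promoters, with 17 Hox genes unmatched. Haglros was not analysed here, and some genes and sequences are not reported here.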

Additional observations from a re-analysis of the deposited data

How the results depend on the processing

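The count of 4 Hox genes that were on was the same at 0.5 CPM, with RLE scaling, with CPM by total counts and without any single library, and was 3 at 2 CPM. Called Hox genes stayed at 0 in all 3 comparisons with limma-voom, RLE scaling, no low-count filter, only the 6 libraries compared and each library left out (0 to 0). DESeq2 called 1 in irradiated tumors against vehicle, Hoxa3. DESeq2 also called 726, 553 and 646 genes of all tested in the 3 comparisons, against 108, 7 and 1 by edgeR, and the cause was not tested. With the replicate block, 0 Hox genes were called in each comparison, and 0, 3 and 0 of all genes. Deviations from group means correlated at -0.05 to 0.23 between the 9 pairs of same-numbered tumors and at -0.23 to 0.12 between the 18 other pairs, so the numbers were not taken to pair tumors. The 9 named fold changes kept their direction in all alternatives run. Hoxa3 did not pass the filter for both irradiated comparisons when only the 6 libraries compared were used, so it has no value there. Without the low-count filter, 33 Hox genes were tested, with 0 called in each comparison, and 199, 70 and 24 of all genes called. With only the 6 libraries compared, 594, 1 and 0 of all genes were called. Depth limits the 32 genes that were off, since 3 counts correspond to 0.115 to 0.221 CPM per library.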
